A study of Mus musculus with 6 samples.

Results

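The apoptosis regulators described here are the genes whose products start, carry out or block programmed cell death. They comprise the Bcl2 family, the caspases, the inhibitor of apoptosis (IAP) proteins, the TNF receptor superfamily and the factors that connect them. Members were all array probes whose annotated gene symbol begins with Bcl2, with Birc and a digit from 1 to 7 or with Tnfrsf and a digit, is Casp followed by a number alone, or is any of Aifm1, Apaf1, Bad, Bak1, Bax, Bbc3, Bid, Bik, Bmf, Cflar, Cycs, Diablo, Fadd, Mcl1, Pmaip1 and Xiap. This rule gave 142 probes of 60 genes, out of 45281 probes in all and 19057 genes with a probe of their own. Bax was not analysed here.

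The samples were the outer ectoderm from which epidermis arises, surface ectoderm (SE), and the layer that folds into brain and spinal cord, neural ectoderm (NE). Both were cut with needles from the forebrain level of wild-type CD-1 mouse embryos labelled E8.5, and neither group had a treatment beyond the pancreatin and trypsin used to part the layers. The paper describes the pooled embryos as spanning several somite stages from slightly before E8.5, with more embryos per SE pool than per NE pool. Each of the 3 SE and 3 NE samples was RNA from a pool of tissue of many embryos, hybridised to 1 single-colour Illumina MouseWG-6 v2 array, so that variation between single embryos was not measured. The comparison addressed which factors differ between the tissues as their fates separate.

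Cell death in vertebrates runs along 2 main routes. In the mitochondrial route, BH3-only proteins sense stress and engage the prosurvival members of the Bcl2 family, after which the effectors Bax and Bak1 open the outer mitochondrial membrane. Cytochrome c then leaves the mitochondria and assembles with Apaf1 and caspase-9. In the death receptor route, ligands of the TNF family gather receptors with a death domain, and the adaptor Fadd brings in caspase-8. Both routes end in executioner caspases, which IAP proteins restrain. Apoptosis occurs in the neural folds and overlying ectoderm during neural tube closure, and mice without Apaf1 or Casp9 have excess brain tissue and often an open cranial neural tube.

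After background correction and quantile normalization, signals were put on a log2 scale. Each probe detected on at least 3 of the 6 arrays (detection p under 0.05 against negative control beads) was compared between the tissues with limma, and a probe was called different at a Benjamini-Hochberg adjusted p under 0.05 over all 19590 probes tested. All adjusted p-values below are from limma, all differences are SE minus NE on the log2 scale, and each gene is represented by its tested probe with the highest mean signal. Levels of different genes cannot be set against each other, because each probe has its own brightness. The p-values, standard errors and intervals rest on the spread among 3 pools per tissue, which limma draws towards a value shared by all tested probes. They are therefore not set by the SD of a gene alone. Precision is limited by how few arrays there are. Since the samples are bulk tissue, fewer cells that express a gene and less of its RNA per cell cannot be told apart.

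Between 18916 and 19402 probes were detected per array, and arrays of 1 tissue correlated across tested probes with r from 0.994 to 0.995, against 0.955 to 0.962 between tissues. The tissue labels matched the markers: all 11 tested SE markers, among them Krt8 and Cdh1, were higher in SE, and all 10 tested NE markers, among them Sox2 and Lhx5, were higher in NE. Epcam in SE and Pax6 in NE were not detected. Markers of other cells also differed. All 8 tested genes of cephalic mesenchyme, of 13 on the array, were higher in SE, with a summed signal of 2505 to 3361 in SE and 318 to 483 in NE. The study's methods describe the isolated layers as free of such mesenchymal cells. All 5 tested erythroid genes of 7 were higher in SE, with sums of 4197 to 7878 against 727 to 2205. The sums were 6426 to 7120 in SE against 3524 to 4348 in NE for neural crest genes (3 of 6 higher in SE, 1 in NE), and 1843 to 2192 against 1318 to 1571 for endothelial genes (2 of 10 higher in SE). Leukocyte markers summed to 282 to 314 against 109 to 181, with Laptm5 the 1 gene of 12 higher in SE and 8, including Ptprc, Adgre1, Tyrobp and Lyz2, detected on no array. Endoderm genes ran the other way, at 104 to 152 in SE and 461 to 611 in NE, with 3 of 8 higher in NE. The 3 were Foxa1, Foxa2 and Trh. Apoa1 did not pass, Sox17 and Ttr were detected on 1 array each, and Afp and Cer1 on none. The part of these other cells in the differences below was not tested.

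Of the 60 genes, 35 could be tested. Of these, SE had the higher level of 7 and NE of another 7, while 21 did not pass. The share called, 14 of 35 genes, lies at the background of this comparison, in which 40.3% of all 10603 genes tested passed, 18.7% higher in SE and 21.6% higher in NE. By probe, 13 of the 70 tested were higher in SE and 11 in NE, where 37.3% of all probes passed, 17.1% towards SE and 20.2% towards NE. The median difference of the 35 genes was 0.06, and that of all genes was -0.02. The 7 genes higher in SE were Tnfrsf12a, Casp8, Bik, Bcl2l1, Casp6, Bmf and Tnfrsf10b, and the 7 higher in NE were Tnfrsf22, Bcl2l11, Birc6, Bid, Casp9, Bcl2l13 and Cycs. The median fold was 1.70 among those higher in SE and 1.39 among those higher in NE, and 4 genes of the 14 differed by more than 2-fold. The arrays of the tissues did not overlap for 18 of the 35 genes, where 55.1% of all genes tested did not overlap, and for 34 of the 70 probes, where 51% of all probes did not. Leaving out 1 array at a time gave 6 to 8 genes higher in SE and 4 to 6 higher in NE, and the 4 were reached without NE replicate 1 or without SE replicate 3. With the replicate number as a block, 7 were higher in SE and 5 in NE.

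**Figure D1:**
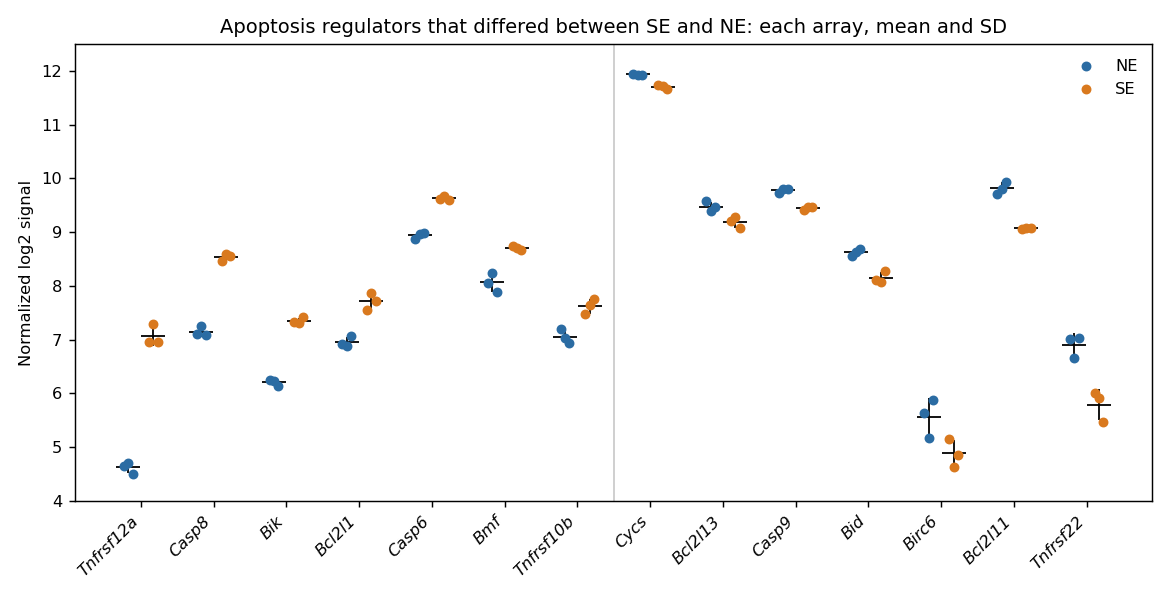
Normalized log2 signal (y axis) of the 14 apoptosis regulators called different (x axis), with 3 NE arrays in blue and 3 SE arrays in orange; black bars are the mean and SD. Genes to the left of the grey line were higher in SE and those to the right higher in NE. The arrays of the 2 tissues do not overlap for any of the 14, which were picked by their adjusted p. Of all genes tested, 55.1% do not overlap.

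The stretches of 200 bases upstream of annotated transcription starts are shown for 5 of these genes, as examples of the upstream sequence on each side. Casp8, Tnfrsf12a and Bmf were higher in SE, and Bcl2l11 and Casp9 in NE. They were taken from RefSeq on GRCm38.p6, which held such sequence for 11 of the 14 genes, and run 5′ to 3′ on the strand of the gene up to the base before the start. Capitals mark matches, on either strand, to 5 motifs: the AP-2 motif GCCNNNGGC, the GC box GGGCGG, the CCAAT box CCAAT, the TATA box TATAAA and the Grainyhead-like motif AACCGGTT. In the stretches shown, no match overlaps a match to another motif.
Casp8 (chr1:58802302-58802501, plus strand): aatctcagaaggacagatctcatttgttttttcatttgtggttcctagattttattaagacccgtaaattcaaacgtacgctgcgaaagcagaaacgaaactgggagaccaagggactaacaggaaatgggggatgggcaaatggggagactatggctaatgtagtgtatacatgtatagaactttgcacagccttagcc
Tnfrsf12a (chr17:23677450-23677649, minus strand): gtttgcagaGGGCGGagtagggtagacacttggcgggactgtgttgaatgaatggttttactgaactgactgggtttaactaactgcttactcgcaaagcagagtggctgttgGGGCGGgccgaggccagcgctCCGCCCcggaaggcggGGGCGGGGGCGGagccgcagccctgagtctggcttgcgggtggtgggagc
Bmf (chr2:118544588-118544787, minus strand): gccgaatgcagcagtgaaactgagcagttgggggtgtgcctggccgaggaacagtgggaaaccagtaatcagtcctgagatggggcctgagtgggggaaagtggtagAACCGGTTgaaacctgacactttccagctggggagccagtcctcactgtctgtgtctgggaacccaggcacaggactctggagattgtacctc
Bcl2l11 (chr2:128125838-128126037, plus strand): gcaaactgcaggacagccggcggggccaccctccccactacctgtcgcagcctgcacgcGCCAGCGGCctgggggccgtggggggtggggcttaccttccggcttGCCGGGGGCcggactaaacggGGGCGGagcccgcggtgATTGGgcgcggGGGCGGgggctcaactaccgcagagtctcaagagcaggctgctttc
Casp9 (chr4:141793412-141793611, plus strand): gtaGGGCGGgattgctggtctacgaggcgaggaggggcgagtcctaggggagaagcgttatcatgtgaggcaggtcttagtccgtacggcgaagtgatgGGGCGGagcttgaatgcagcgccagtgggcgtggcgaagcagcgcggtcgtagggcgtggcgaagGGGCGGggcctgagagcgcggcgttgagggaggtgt
Of 32851 such stretches in the reference, 31% held the GC box, 29.3% the CCAAT box, 11.8% the AP-2 motif, 9.96% the TATA box and 0.0822% the Grainyhead-like motif. The GC box was found upstream of 5 of the 6 genes higher in NE that had sequence, in 2 copies at each of 2 starts of Bcl2l11 and in 3 copies in Casp9, and upstream of 1 of the 5 higher in SE, Tnfrsf12a, with 5 copies. These counts are per gene, over up to 3 starts each, while the reference shares are per stretch. Every stretch of Bcl2l1, Casp8 and Bid lies inside the annotated gene span, as does 1 of the 2 of Bcl2l11. The same holds for the stretches of Bmf other than that at the 5′ end of the gene. Those of Bcl2l13 and Birc6 overlap the span in part. The counts therefore mix unlike positions in both tissues, and a difference between the tissues was not tested. The stretch of Casp8 had none of the 5 motifs and a GC content of 42.0%, against 66.0% for Casp9, 72.5% for the Bcl2l11 stretch and a median of 53% in the reference. The Casp8 stretch lies inside the annotated gene span (chr1:58795233-58847503). Those shown for Casp9 and Bcl2l11 end at the base before their gene spans, so the positions are not alike. The Grainyhead-like motif occurred at 1 of 3 starts of Bmf and at no other start of the 11 genes, and that start is shown for this reason. This Bmf start lies inside the annotated gene span (chr2:118528757-118549686). The stretch at the 5′ end of the gene, chr2:118549687-118549886, held 3 CCAAT box matches and no Grainyhead-like motif. Such a match is a description of letters in this window, and binding was not measured.

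Among the 5 tested prosurvival genes of the Bcl2 family, where 40.3% of all genes tested were called, Bcl2l1 alone was called. It encodes Bcl-xL, which holds Bax and Bak1 in check. NE arrays 1, 2 and 3 read 6.91, 6.88 and 7.06 on the log2 scale, and SE arrays 1, 2 and 3 read 7.56, 7.87 and 7.72. Every SE array lay above every NE array, a difference of 0.77 with a standard error of 0.10 and an adjusted p of 0.000811, or 1.70-fold. Its other 2 tested probes were also higher in SE, by 0.67 and 0.50. Mcl1, a short-lived prosurvival protein required in early embryos, stood at 11.27, 11.35 and 11.24 in NE and 11.03, 11.16 and 10.98 in SE. The arrays did not overlap, but the difference of -0.23 had an adjusted p of 0.0621. Bcl2l2, which encodes Bcl-w, differed by -0.21 (adjusted p = 0.0646), also without overlap. Mcl1 was called higher in NE without background correction, with an offset of 50, with median centring, in the deposited scaled values and without SE replicate 2, with adjusted p from 0.0188 to 0.0478. Bcl2l2 was called under the first 4 of these. Bcl2 itself was dim, at 5.87 to 6.17 in NE and 5.81 to 6.03 in SE, with a difference of -0.17 (95% confidence interval -0.42 to 0.08), and none of its 4 tested probes of 9 passed. Bcl2a1b differed by 0.15 and did not pass, while Bcl2a1c, Bcl2a1d and Bcl2l10 were detected on no array. The Bcl2a1 genes are near-identical copies, so their probes may share RNA.

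All 7 BH3-only genes were detected, and they divided between the tissues, with 2 higher in SE, 2 higher in NE and 3 that did not pass, where 18.7% and 21.6% of all genes were called in these directions. Bik, whose product acts at the endoplasmic reticulum, had a log2 signal of 6.25, 6.24 and 6.13 in NE and 7.32, 7.31 and 7.42 in SE. The gap between the tissues was 1.14 ± 0.077 (standard error), or 2.21-fold, with an adjusted p of 2.22e-05, against an SD within tissues of at most 0.0674. Bmf, known as a sensor of lost attachment to the matrix, stood at 8.06, 8.24 and 7.89 in NE and 8.74, 8.71 and 8.66 in SE. It was 1.56-fold higher in SE (adjusted p = 0.00211), and its 3 SE arrays were closer together than its NE arrays.

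In NE the BH3-only genes with higher signal were Bcl2l11 and Bid. Bcl2l11 encodes Bim, which binds all the prosurvival proteins of the family, and it read 9.71, 9.81 and 9.93 in NE and 9.05, 9.08 and 9.08 in SE. The difference was -0.75 ± 0.082 (standard error), or 1.68-fold higher in NE, with an adjusted p of 0.0003. A second probe of Bcl2l11 differed by -0.54 and was also called, and the 2 dimmest of its 4 probes, at -0.14 and 0.05, were not. Bid, which caspase-8 cleaves to carry the death receptor signal to mitochondria, read 8.56, 8.63 and 8.69 in NE and 8.11, 8.07 and 8.27 in SE. It was 1.39-fold higher in NE (adjusted p = 0.00377). Bad, Bbc3 (Puma) and Pmaip1 (Noxa) did not pass, with differences of 0.06, 0.08 and -0.31, and their 95% intervals ran from -0.18 to 0.30, from -0.10 to 0.27 and from -0.61 to -0.00. Pmaip1 was called higher in NE with median centring and without NE replicate 3.

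The effector Bak1 had 1 probe, detected on 1 SE array only, and was not tested. Among other Bcl2-like genes, Bcl2l13, a mitochondrial outer membrane protein with a role in mitophagy, was 1.22-fold higher in NE (adjusted p = 0.0339). Its arrays read 9.57, 9.40 and 9.46 in NE and 9.21, 9.28 and 9.07 in SE, with no overlap but a narrow gap. Its second probe, at -0.19, did not pass, and the call was lost without NE replicate 1 or 3 or SE replicate 1 or 3, with adjusted p from 0.0659 to 0.104, and with the replicate number as a block (0.0637). In the reference Bcl2l13 and Bid are direct neighbours on chromosome 6. Bcl2l12 differed by 0.18 and did not pass, and Bcl2l14 and Bcl2l15 were not tested.

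Of the mitochondrial factors and Apaf1, 1 gene of 4, Cycs, was called, where 40.3% of all genes tested were called. Apaf1, the scaffold of the apoptosome, read 9.48, 9.44 and 9.43 in NE and 9.20, 9.50 and 9.18 in SE, with SE array 2 above all NE arrays and a difference of -0.16 (95% confidence interval -0.39 to 0.08, adjusted p = 0.265). Cycs, which encodes cytochrome c of the respiratory chain, read 11.95, 11.92 and 11.93 in NE and 11.74, 11.71 and 11.67 in SE. It was 1.17-fold higher in NE with an adjusted p of 0.0382, a call that was lost when any 1 array was left out, with adjusted p from 0.0719 to 0.105. It was also lost with the replicate number as a block (0.0959) and as the mean of its 3 probes (-0.13, adjusted p = 0.243). Diablo, released with cytochrome c to block IAP proteins, and Aifm1, a mitochondrial flavoprotein, differed by 0.00 and 0.05, with 95% intervals from -0.19 to 0.20 and from -0.15 to 0.24. Both intervals lie within 1.5-fold, and a dimmer probe of Aifm1, at 0.36, did not pass (adjusted p = 0.0805).

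Of the 3 initiator caspases, 1 was higher in SE and 1 in NE, where 18.7% and 21.6% of all genes were called in these directions. The 2 called, Casp8 and Casp9, belong to different routes. Casp8, which also restrains necroptosis and is required for survival of the mouse embryo, read 7.11, 7.26 and 7.08 in NE and 8.46, 8.59 and 8.56 in SE. All SE arrays lay above all NE arrays by more than 1 unit, and the difference of 1.39 ± 0.084 (standard error) amounted to 2.62-fold with an adjusted p of 1.29e-05. The other Casp8 probe gave 1.25 with an adjusted p of 2.32e-05. Casp9, which acts in the apoptosome, read 9.72, 9.81 and 9.81 in NE and 9.42, 9.47 and 9.47 in SE, and was 1.26-fold higher in NE (adjusted p = 0.00865). Its other tested probe, dimmer, gave -0.66 and was called in the same direction. Casp2, an initiator linked to DNA damage, differed by 0.06 at its brighter probe and by -0.36 (adjusted p = 0.0510) at the other.

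Casp6, an executioner caspase that cleaves nuclear lamins, read 8.88, 8.97 and 8.99 in NE and 9.62, 9.68 and 9.60 in SE, with no overlap. It was 1.61-fold higher in SE (adjusted p = 0.000273), and its second probe was 0.52 higher with an adjusted p of 0.00258. Of the inflammatory caspases and Casp14, a caspase of the cornifying epidermis, only Casp4 was tested, at -0.12 (adjusted p = 0.289). Casp1 and Casp14 were detected on no array and Casp12 on 1.

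**Figure D2:**
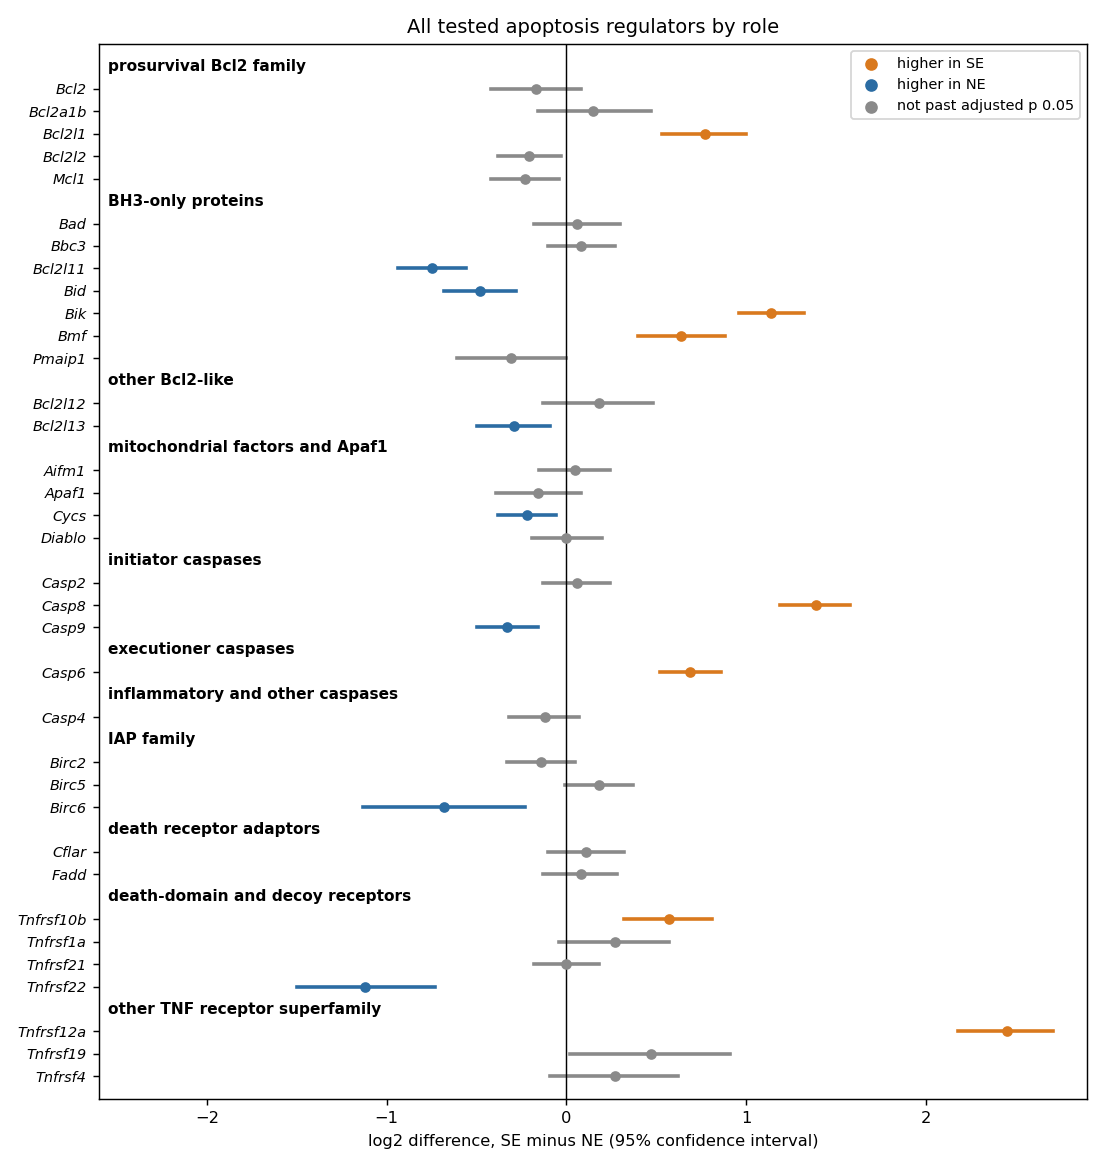
Difference in log2 signal, SE minus NE (x axis), with its 95% confidence interval, for the 35 apoptosis regulators tested, grouped by role (y axis). Orange marks the 7 genes higher in SE, blue the 7 higher in NE and grey the 21 that did not pass an adjusted p of 0.05. BH3-only genes, initiator caspases and the group of death domain and decoy receptors each hold both colours. Of all genes tested, 18.7% were called towards SE and 21.6% towards NE. Tnfrsf12a is drawn at its measured difference, although no NE array detected it.

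Of the IAP family, 3 of 6 genes were tested. Birc5 encodes survivin, which serves in the chromosomal passenger complex of dividing cells as well as in cell survival. It was bright in both tissues, at 12.22, 12.19 and 12.03 in NE and 12.28, 12.32 and 12.36 in SE, and its difference of 0.18 (95% confidence interval -0.01 to 0.37) had an adjusted p of 0.129. Its partners in that complex, Aurkb, Incenp and Cdca8, differed by 0.04, -0.13 and 0.02 and did not pass. Birc6, a very large ubiquitin ligase, was near background, at 5.64, 5.18 and 5.88 in NE and 5.15, 4.64 and 4.86 in SE. It was detected on 2 of 3 SE arrays and was 1.60-fold higher in NE (adjusted p = 0.0275). The call was lost without NE replicate 1 or 3 or SE replicate 2 or 3, with adjusted p from 0.0747 to 0.0914, and with no detection filter (0.0732). Birc6 was not tested where detection on all 6 arrays was required, and its difference was -0.28 without background correction. Birc2, the ligase cIAP1 of TNF receptor complexes, differed by -0.14 at the brightest of 4 probes and by -0.48 (adjusted p = 0.0318) at another. Its direct neighbour on chromosome 9, Birc3, was detected on no array, and neither were Birc7 and the 4 probes of Xiap.

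The adaptors of the death receptors did not differ beyond their spread. Fadd read 9.09, 9.05 and 8.95 in NE and 9.14, 8.98 and 9.20 in SE, which overlap, and its difference of 0.08 had a 95% interval from -0.13 to 0.28. With median centring in place of quantile normalization this difference was -0.03. Cflar encodes cFLIP, the inhibitor of caspase-8, and lies next to Casp8 on chromosome 1. It differed by 0.11 (95% confidence interval -0.10 to 0.32, adjusted p = 0.387), and the interval lies below that of Casp8, from 1.19 to 1.58.

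Of the 4 tested receptors with a death domain or decoy receptors, 1 was higher in SE and 1 in NE. Of all genes tested, 18.7% and 21.6% were called in these directions. Tnfrsf10b, the mouse receptor of the death ligand TRAIL, read 7.19, 7.04 and 6.94 in NE and 7.47, 7.65 and 7.75 in SE. It was 1.48-fold higher in SE (adjusted p = 0.00424), and 2 dimmer probes, at 0.12 and 0.28, did not pass. Tnfrsf22, a mouse decoy receptor that binds TRAIL without a death domain, read 7.02, 6.66 and 7.04 in NE and 6.01, 5.91 and 5.46 in SE. It was 2.17-fold higher in NE (adjusted p = 0.00153), where a second probe gave -0.49 and was called and the third, near background, gave -0.19. The neighbours of Tnfrsf22 on chromosome 7, Tnfrsf23 and Tnfrsf26, were detected on no array. The sequences of Tnfrsf22 and Tnfrsf23 are closely related, so their probes may share RNA. Tnfsf10, which encodes TRAIL, was detected on 1 NE array and was not tested.

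Tnfrsf1a, the main receptor of TNF, was dim, at 5.29, 5.44 and 5.51 in NE and 5.42, 5.72 and 5.90 in SE, and its brightest probe did not pass (difference 0.27, adjusted p = 0.151). The other 2 probes were called higher in SE, at 0.28 (adjusted p = 0.0255) and 0.46 (adjusted p = 0.0183), and the mean of all 3 gave 0.33 with an adjusted p of 0.0140. Tnfrsf21, a death domain receptor of the nervous system, read 8.77, 8.71 and 8.86 in NE and 8.83, 8.74 and 8.76 in SE, with a 95% interval from -0.18 to 0.18, and its dimmer probe, at 0.40, did not pass either. Tnfrsf25 was detected on 2 SE arrays and no NE array, and Tnfrsf11b on none.

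Tnfrsf12a gave the largest difference of the 35 genes. It encodes the receptor of TWEAK, lacks a death domain and is known from growth factor responses and tissue repair. Its log2 signal was 4.65, 4.71 and 4.51 in NE and 6.96, 7.29 and 6.96 in SE, and its raw signal was 63.4, 66.4 and 62.2 in NE and 165.4, 197.6 and 156.1 in SE. No NE array detected it, so that it passed the detection filter through SE alone and its fold is a bound. It was at least 4.82-fold higher in SE, the mean SE signal being set against the lowest detected signal of each NE array or the signal of the probe where that was higher. The fit on the measured signals, which in NE were not above background, gave an adjusted p of 3.11e-06. Its ligand gene, Tnfsf12, was detected on no array. When more than 3-fold and p under 0.05 without adjustment were required, Tnfrsf12a was the 1 apoptosis regulator left of 35 genes and of 70 probes. Of all genes, 2.67% met this rule towards SE and 1.59% towards NE, and of all probes 2.05% and 1.19%. Without any 1 SE array Tnfrsf12a was detected on fewer than 3 arrays and was not tested.

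Of the 12 other receptors of the superfamily, 8 were detected on no array. Tnfrsf19, a receptor without a death domain that occurs in neural and skin progenitors, read 8.07, 8.77 and 8.05 in NE and 8.89, 8.72 and 8.68 in SE. NE array 2 lay among the SE arrays, the difference was 0.47 and the adjusted p was 0.0915. With all arrays kept it was called higher in SE without background correction (adjusted p = 0.0358), with an offset of 50 (0.0447) and in the deposited scaled values (0.0401). Without NE replicate 2 the difference was 0.70 with an adjusted p of 0.00234. Tnfrsf19 was singled out after its values were seen. Tnfrsf4, a receptor of T cells, was near background at 4.67 to 5.20 in NE and 5.15 to 5.40 in SE, and did not pass.

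**Figure D3:**
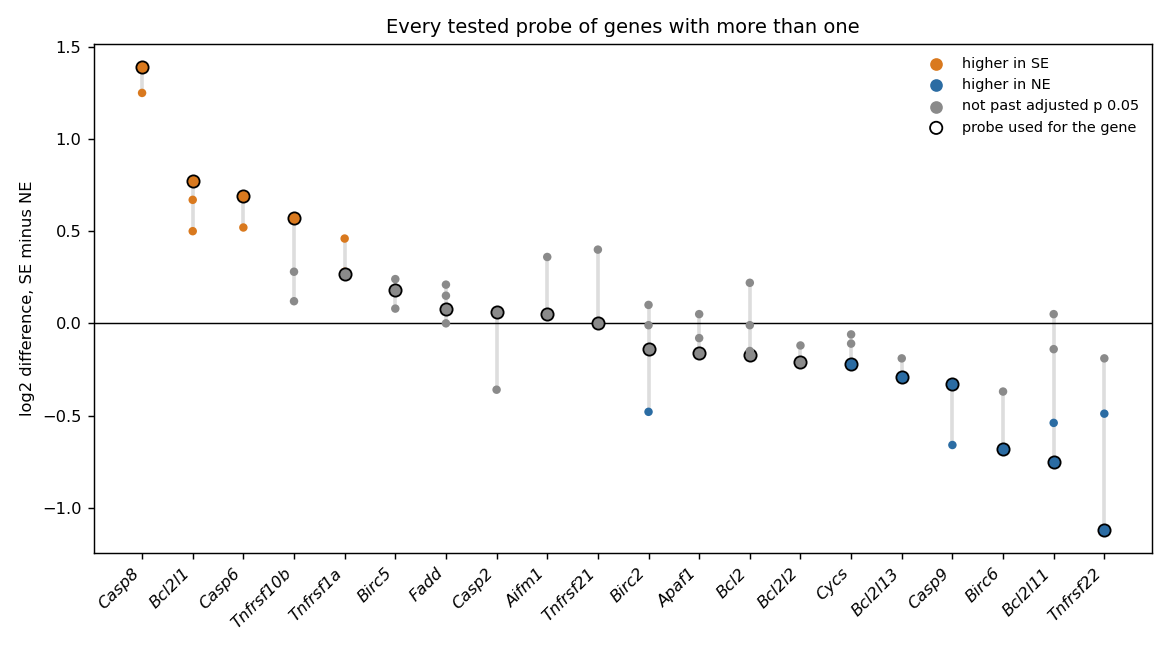
Difference in log2 signal, SE minus NE (y axis), of every tested probe of the 20 apoptosis regulators with more than 1 tested probe (x axis). Ringed points are the probes used for the gene, colours mark calls at an adjusted p under 0.05, and no gene has probes called in opposite directions; both probes of Casp8 lie above 1.2 and the 3 of Tnfrsf22 range from -1.12 to -0.19.

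Agreement between probes could be examined for 20 genes with more than 1 tested probe. None had probes called in both directions. Every tested probe passed in the same direction for Casp8, Bcl2l1, Casp6 and Casp9, and 1 probe of several passed for Tnfrsf10b, Birc6, Bcl2l13 and Cycs. Among genes not called by their brightest probe, 1 of 4 probes passed for Birc2, towards NE, and 2 of 3 for Tnfrsf1a, towards SE. The spread between the probes of a gene reached 0.93 for Tnfrsf22 and 0.80 for Bcl2l11. Tnfrsf12a, Bik, Bmf and Bid each rest on 1 tested probe.

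The 21 genes that did not pass had differences from -0.31 to 0.47. For all 21 the 95% interval lay within 2-fold in either direction, and for 18 it lay within 1.5-fold. Bcl2, Bcl2a1b, Casp4, Tnfrsf1a and Tnfrsf4 among them were dim or near background, where a difference in signal can understate one in RNA. For these the interval bounds the signal only. The 25 genes not tested comprise 20 of which no probe was detected on any array and 5 with detection on 1 or 2 arrays, and for these the arrays give no comparison.

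Further genes of these pathways were taken from 6 lists. Of 82 such genes on the array 57 were tested, with 9 higher in SE, 12 higher in NE and 36 that did not pass, against the background of 40.3% of genes called, and with a median difference of 0.03. Without SE replicate 3, 5 of them were higher in SE. In the p53 pathway, whose transcription factors induce several BH3-only genes, SE had the higher level of 4 of the 12 tested genes and NE of 2. Trp63, a member of the p53 family that maintains stratified epithelia, read 4.44, 4.53 and 4.40 in NE, where no array detected it, and 9.23, 9.31 and 9.06 in SE, at least 21.1-fold higher. As for Tnfrsf12a, its adjusted p of 1.14e-07 rests on NE signals not above background. Cdkn1a, a p53 target that halts the cell cycle, read 5.33, 5.63 and 5.60 in NE and 7.33, 7.35 and 7.35 in SE, 3.55-fold higher in SE (adjusted p = 6.05e-06). Its other tested probe gave a smaller difference of 0.72. Phlda3, a p53 target that restrains Akt, was 2.68-fold higher in SE, and Ei24 1.40-fold.

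Other genes of the p53 list did not follow Cdkn1a. Zmat3 and Trp53inp1, both p53 targets, were 2.59-fold and 1.89-fold higher in NE, and Mdm2, the ubiquitin ligase of p53, had a difference of 0.07 (adjusted p = 0.532). The other tested probe of Trp53inp1 gave -0.31. Among the members, the p53 targets Bbc3 and Pmaip1 did not pass. Ei24, Zmat3, Trp53inp1 and Mdm2 were named after their values were seen, and Trp53 was not analysed here.

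Of 10 other genes of the mitochondrial route, 2 were higher in SE and 2 in NE. Of all genes tested, 18.7% were called towards SE and 21.6% towards NE. Bnip3l, a mitophagy receptor, was 1.57-fold and Bok, a relative of Bax, 1.35-fold higher in NE, while the mitochondrial protease gene Htra2 was 1.48-fold higher in SE. The other tested probe of Bok gave -0.10, and the tested probes of Htra2 ran from 0.16 to 0.56. The other gene higher in SE was Bag1, at 1.22-fold, named after its values were seen. Of 7 TNF ligands and other death receptors, 2 were higher in SE and 0 in NE (limma, and also 0 at an unadjusted p under 0.05). Ngfr, the neurotrophin receptor with a death domain, was 3.08-fold higher in SE (adjusted p = 8.31e-05), and the ligand gene Ltb, detected on no NE array, at least 1.15-fold. Tnf, Fasl and Fas were detected on no array.

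Of 10 genes of death receptor signalling, 1 was higher in SE, Dap by 1.41-fold, and 3 in NE, namely Cyld, a deubiquitinase of receptor complexes, by 1.28-fold, Ikbkg by 1.22-fold and Traf6 by 1.21-fold. Ikbkg lost its call with the replicate number as a block (adjusted p = 0.0540), as the mean of its probes (-0.12, adjusted p = 0.252) and without NE replicate 1 or 2 or SE replicate 2 or 3 (0.0689 to 0.0851), and Dap without SE replicate 3 (0.0551). Traf6 was named after its values were seen, and its 4 tested probes ran from -0.45 to 0.07. Of 8 caspase substrates and nucleases, 3 were higher in NE, Acin1, Cad and Parp1, by 1.29-fold, 1.25-fold and 1.17-fold. The calls of Acin1 and Parp1 were lost with the replicate number as a block (adjusted p = 0.0709 and 0.0917). As the mean of its probes Acin1 differed by -0.11 (adjusted p = 0.445) and Parp1 by -0.15 (adjusted p = 0.0980). Without any 1 array other than NE replicate 3, Acin1 did not pass, with adjusted p from 0.0584 to 0.114, and Parp1 did not pass without any 1 of the 6. Cad was lost without NE replicate 3 (0.0526) or SE replicate 1 (0.0583). Of 10 mitotic genes, Kif11 and Top2a were 1.42-fold and 1.32-fold higher in NE. The other 8 did not pass, and the median over the list was -0.05. The background for these lists was 18.7% of all genes called towards SE and 21.6% towards NE.

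**Figure D4:**
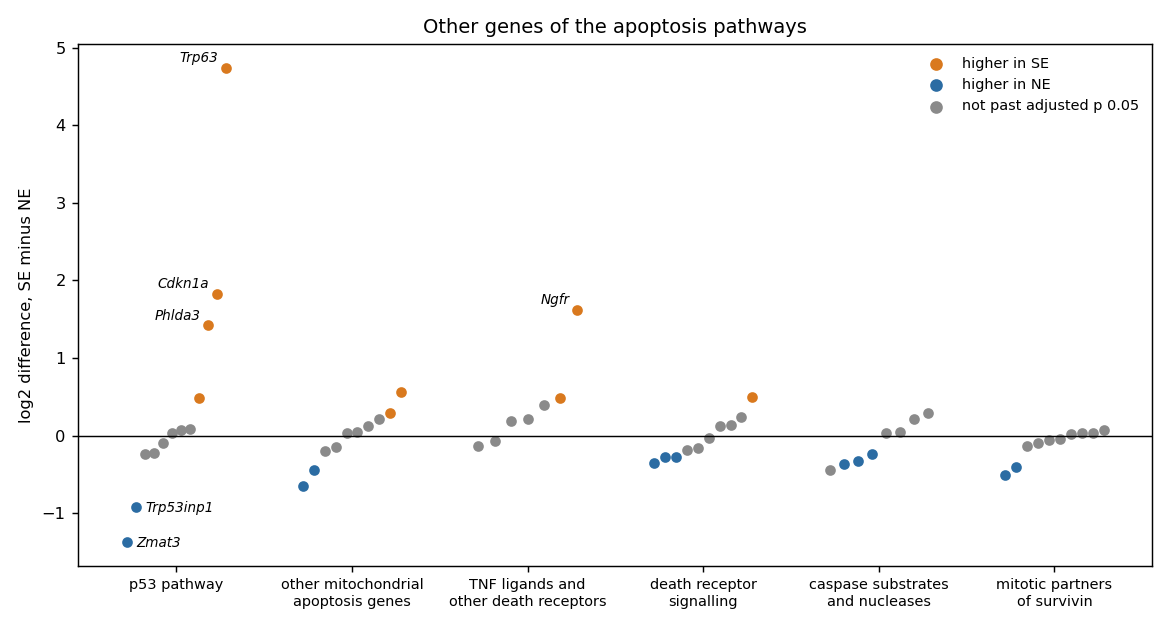
Difference in log2 signal, SE minus NE (y axis), of the 57 tested genes in 6 further lists (x axis), 1 point per gene, ordered within a list by difference. Orange points were higher in SE, blue points higher in NE and grey points did not pass an adjusted p of 0.05; Cdkn1a at 1.83 and Ngfr at 1.62 lie high and Zmat3 at -1.37 lowest. Trp63 and Ltb are drawn at their measured differences, although no NE array detected them.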

How the data were processed

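RNA of the 3 SE and 3 NE samples, labelled E8.5, was read on 1 array each. The authors exported probe intensity values and detection p-values from BeadStudio (version: not given in the sources used here). Those deposited intensity values had no background correction or normalization between arrays, and the deposited detection p-values compare each probe with negative control beads. A second deposited table held scaled intensity values, equal to the first times 1 constant per array (0.966 to 1.07), and served as an alternative. Its scale and centring are thereby known.

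Here, intensity values were background corrected and quantile normalized in limma 3.58.1 (R 4.3.3, neqc, offset 16, negative control moments inferred from the detection p-values), and taken to log2. Probes detected at p under 0.05 on at least 3 of 6 arrays were tested with lmFit and eBayes on tissue alone, with Benjamini-Hochberg adjustment over 19590 probes. The filter keeps a probe detected in 1 tissue only. Where no array of a tissue detected a probe, each of its arrays was set to its lowest detected log2 signal (4.79 to 4.83) or to the probe's own signal if higher, and the fold is given as "at least". Gene symbols came from the platform annotation as given in the repository, in which 34885 of 45281 probes had 1 symbol, and all 60 member symbols were also those of RefSeq.

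Named with values were a set of core genes whatever their values, up to 4 called genes of each role and up to 3 of each further list by size of difference, and genes whose probes disagreed. Other members were named to account for them. Per the study's methods, SE and NE samples of 1 number came from the same replicate experiment, so the number was taken to pair them, although deviations of same-numbered arrays from their tissue means correlated only at -0.037, -0.031 and -0.02. Members and lists were chosen with earlier results of these data known. Alternatives were no background correction, an offset of 50, median centring, the scaled values, other detection filters, the mean of a gene's probes, the replicate number as a block, leaving out each array, and a fold above 3 with an unadjusted p under 0.05.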

Additional observations from a re-analysis of the deposited data

How the results depend on the processing

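Leaving out 1 array at a time gave 4 to 6 member genes higher in NE, 6 to 8 higher in SE, 7 to 10 member probes higher in NE, 9 to 13 higher in SE, and among the further pathway genes 8 to 9 higher in NE and 5 to 10 higher in SE. With 1 array left out, an arm had 2 arrays. At a fold above 3 with an unadjusted p under 0.05, the counts towards SE were 1 member gene, 1 member probe and 3 further pathway genes, and those towards NE were 0 in each case. The other alternatives kept each of these counts within 1.5 times. With the replicate block, the counts towards SE and NE were 7 and 5 member genes, 13 and 8 member probes, and 8 and 9 further pathway genes, and of the member genes Bcl2l13 and Cycs lost their calls.

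Of 519 values of single named genes under an alternative, 464 kept direction and side of the threshold, 43 kept direction and no longer passed, 11 came to pass and 1 changed sign, Fadd at -0.03 with median centring. The cause was not tested. The median of all probes lay between -0.091 and 0.002 in every setting. Signals near background limit Birc6, Tnfrsf1a, Tnfrsf4, Bcl2, Bcl2a1b and Casp4, and the NE side of Tnfrsf12a, Trp63 and Ltb.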
